A study of Mus musculus with 12 samples.

Results

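The genes described here are 40 proliferation genes. Of these, 19 were listed under the entry into and course of DNA replication (G1/S and S genes). The other 21 were listed under the preparation and execution of mitosis (G2/M genes). The classes are not strict, with the microtubule regulator Stmn1 in the first and Ccna2, whose cyclin A acts at S and G2, in the second. The genes were chosen as a list of named genes by their known role in the cell cycle, and make up 40 of the 49585 genes counted. All 40 were found under their symbols. RNA-seq was available for HSCs from the bone marrow (BM) of 6 WT and 6 Pon2-/- mice. All mice were aged 10 to 14 weeks and had the C57BL/6J background. Pon2-/- mice carry a loxP-flanked, β-geo-containing gene trap vector in intron 2 of Pon2 in all cells, and the WT mice were obtained from Charles River, so that WT mice were not stated to be littermates. No agent was given to either group. HSCs were sorted as Lin-, Sca1+, ckit+, CD135- and CD150+ cells, a gate named LT-HSCs in the labels, which according to the study also takes in MPP2, a multipotent progenitor. From each mouse, 8 wells with 10 cells each were sequenced, and the counts are given per mouse. The 80 cells of a mouse are thus 1 sample, and the mice are the replicates (n = 6 per genotype).

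A cell that divides runs through a gap phase (G1), DNA synthesis (S), a second gap (G2) and mitosis (M), and most adult HSCs rest outside this cycle in quiescence (G0). Genes for replication are activated at the G1/S border by the E2F transcription factors at sites in their promoters. Genes for mitosis are activated later by the MuvB complex with B-Myb and FoxM1, and they are held down in resting cells by the DREAM complex, which binds the cell cycle genes homology region (CHR), TTTGAA, often next to a CCAAT box bound by NF-Y. Messages of G2/M genes peak in cells close to division, whereas those of the replication machinery peak earlier in the cycle.

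These sequence classes were visible in the promoters of the 40 genes. RefSeq promoter sequences (GRCm38.p6, from 250 bases before to 50 bases after each start site) were matched for 17 of the 21 G2/M genes and for 15 of the 19 G1/S and S genes. On both strands, CHR was searched as TTTGAA, the CCAAT box as CCAAT, and the E2F site as TTTCCCGC, TTTCGCGC, TTTGCCGC or TTTGGCGC. The windows of 30 bases shown here, with the motif in capitals, are of G2/M genes that recur in the results. Position +1 is the start site, and each sequence is written 5′ to 3′ on the strand of the gene.
Mki67, 98 bases before the start, chr7:135716460-135716489, minus strand: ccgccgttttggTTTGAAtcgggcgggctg
Cdk1, 71 bases before the start, chr10:69352966-69352995, minus strand: ctgattggctccTTTGAAcgtctacgtgca
Cdc20, 18 bases before the start, chr4:118437344-118437373, minus strand: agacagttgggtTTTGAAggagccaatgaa
Plk1, from +31, chr7:122159453-122159482, plus strand: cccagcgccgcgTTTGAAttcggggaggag
Kif23, from +3, chr9:61946780-61946809, minus strand: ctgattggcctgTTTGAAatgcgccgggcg
For replication genes with an E2F site, the windows show that site in capitals, and in Mcm7 and Cdc6 it stands as the reverse complement of TTTCCCGC.
Mcm5, 153 bases before the start, chr8:75109345-75109374, plus strand: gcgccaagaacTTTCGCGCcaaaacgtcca
Mcm6, 110 bases before the start, chr1:128359797-128359826, minus strand: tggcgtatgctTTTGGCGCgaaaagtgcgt
Mcm7, 165 bases before the start, chr5:138172030-138172059, minus strand: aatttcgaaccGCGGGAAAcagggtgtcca
Cdc6, 138 bases before the start, chr11:98908002-98908031, plus strand: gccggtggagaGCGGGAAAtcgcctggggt

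A CHR was found in 12 of 17 promoters of G2/M genes (70.6%), in 1 of 17 promoters of G1/S and S genes (5.88%, Mcm2) and in 5878 of 32851 promoters of all genes (17.9%). E2F sites showed the opposite distribution, with 1 of 17 promoters of G2/M genes (5.88%, Cdk1), 8 of 17 promoters of G1/S and S genes (47.1%) and 2.26% of all promoters. CCAAT boxes were shared by both classes, with 88.2% of the promoters of G2/M genes, 70.6% of those of G1/S and S genes and 37.4% of all promoters. All 12 promoters of G2/M genes with a CHR also held a CCAAT box, a combination present in 6.95% of all promoters. A match is a run of letters in this window, and binding was not measured here.

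**Figure D1:**
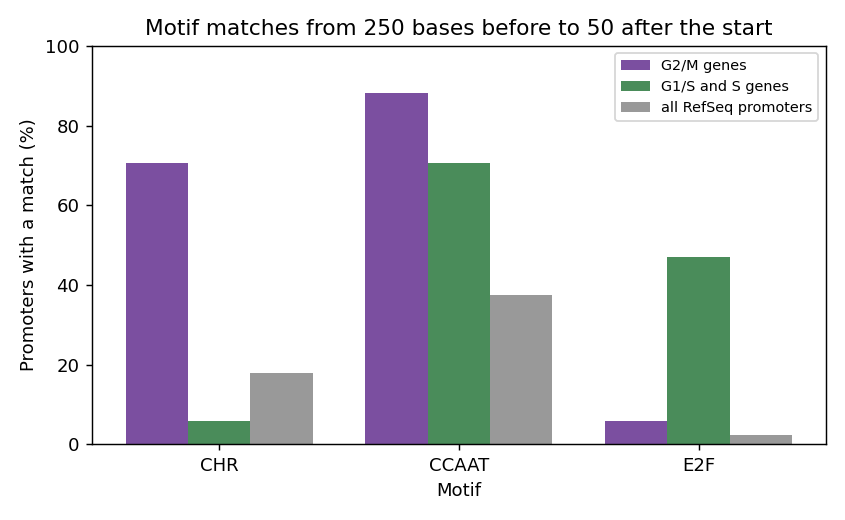
Share of promoters (%) that hold a CHR, a CCAAT box or an E2F site, for the 17 promoters of G2/M genes (purple), the 17 promoters of G1/S and S genes (green) and the 32851 promoters of all genes (grey). CHR stands at 70.6% in G2/M genes and 5.88% in G1/S and S genes, while E2F sites stand at 5.88% and 47.1%.

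The total count per sample was 12967791 to 24228280, and 13941 to 15656 genes had at least 1 count. Where no read was counted for a gene, the count of 0 allows a level of up to 3 counts, which is 0.124 to 0.231 counts per 1000000 (CPM), for counting error only. Pon2 itself (ENSMUSG00000032667.17, chromosome 6 from 5264147 to 5298455) had 56.4 to 202 CPM in WT HSCs (median 105) and 1.16 to 33.1 CPM in Pon2-/- HSCs (median 29.9), without overlap of the genotypes. Its log2 fold change was -2.13 (SE 0.57, adjusted p = 0.586 with edgeR's quasi-likelihood test, exact permutation test p = 0.00216, the smallest it can give), and every gene had to be read against a wide spread between mice, with a biological coefficient of variation of 99.2%. The 8 genes of the HSC gate list, Kit among them, were counted in all 12 samples, at a summed level of 1823 to 2494 CPM in WT HSCs and 1789 to 2332 CPM in Pon2-/- HSCs. Flt3, which encodes the CD135 that the gate excludes, was also counted in all 12 samples (8861 counts in total). Counts on Y-linked genes were at or near 0 in WT replicates 1, 2 and 3 and in Pon2-/- replicates 1 and 2. The other mice had 171 to 408 CPM on them. Xist, the RNA of the inactive X chromosome, had 7708 to 17769 counts in the replicates named and 0 to 15 in the others. By these values the replicates named were female and the others male, so the mix of sexes differed between genotypes. The labels do not give the sex of the mice.

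HSCs of both genotypes contained messages of all 40 proliferation genes. Counts were found in all 12 samples for 39 genes, the exception being Ccne1 with 9 samples. All 40 passed the filter on low counts. Per length, the order of mean levels was headed by Stmn1, which encodes the microtubule regulator stathmin, at a mean of 726 TPM, counts scaled by exon length to a total of 1000000 per mouse. It was followed by Ccnb2 (263 TPM), Pcna (248 TPM), Mcm6 (233 TPM), Mcm3 (215 TPM) and Cdc20 (194 TPM). Ccnb2, Pcna, Mcm6 and Mcm3 are neighbours in this order whose mean levels differed by less than the SD between mice. The lowest were the kinesins Kif11 (10.1 TPM) and Kif20a (13.9 TPM) and the kinetochore protein gene Cenpf (14.5 TPM). The median over genes was 69.1 TPM for G1/S and S genes and 53.1 TPM for G2/M genes. These levels are means over pools of cells. Here and for all results below, fewer cycling cells and less RNA per cell cannot be told apart.

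Between Pon2-/- and WT HSCs, 0 of the 40 genes passed both thresholds, an FDR below 0.05 and a fold change above 2 (edgeR), while 24 of all 11848 tested genes did (0.203%; 0.127% with higher and 0.0760% with lower levels in Pon2-/- HSCs). With an unadjusted p below 0.05 there was 1 member, Mcm5, compared with 371 of all tested genes (3.13%; 1.70% with higher and 1.43% with lower levels in Pon2-/- HSCs). DESeq2 and limma voom also called 0 of the 40. The genotypes overlapped for all 40 genes, whereas they did not overlap for 75 of the tested genes (0.633%). The log2 fold changes ranged from -0.61 (Kif11) to 0.82 (Cenpf), with a median of -0.07 compared with -0.01 over all tested genes. They were positive for 17 and negative for 23 of the 40 genes. Except for Mcm5, all 95% intervals of the log2 fold change included 0. The interval lay within -1 and 1, so that a 2-fold difference was outside it, for 11 of the 19 G1/S and S genes, and for 1 of the 21 G2/M genes (Top2a). For the others, the interval reached beyond a 2-fold difference in at least 1 direction, so that such a difference was not excluded at this spread. The widest interval belonged to Ccne1, from -3.50 to 3.05. All 40 adjusted p were 0.9999.

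**Figure D2:**
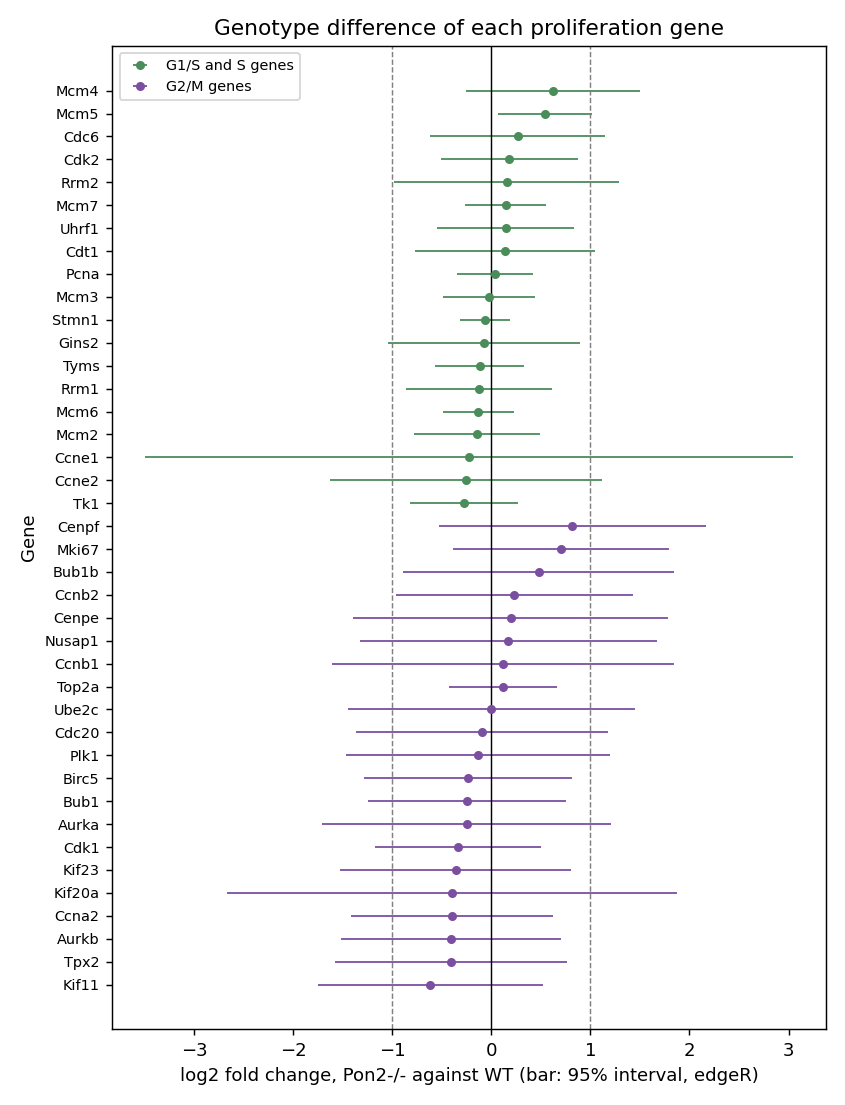
Log2 fold change of each of the 40 genes, Pon2-/- against WT HSCs (edgeR, n = 6 mice per genotype), with bars for the 95% interval and dashed lines at a log2 fold change of -1 and 1. Most intervals of G2/M genes (purple) cross a dashed line, and 11 of the 19 intervals of G1/S and S genes (green) stay between them.

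The MCM2-7 helicase, encoded by Mcm2 to Mcm7, is loaded onto origins by Cdc6 and Cdt1, Gins2 encodes a part of the active helicase, and Pcna encodes the sliding clamp of the polymerases. The mean log2 CPM over these 10 genes was 7.15 ± 0.08 in WT HSCs and 7.21 ± 0.42 in Pon2-/- HSCs (SD, n = 6 each), while single genes spread more, with a median SD of log2 CPM over the genes of 0.37 among WT and 0.50 among Pon2-/- mice. Pcna (ENSMUSG00000027342.14, chromosome 2 from 132249162 to 132253314) had 198 to 317 CPM in WT HSCs (median 224) and 198 to 372 CPM in Pon2-/- HSCs (median 227). Its log2 fold change was 0.04 (SE 0.18, 95% interval -0.35 to 0.43, edgeR adjusted p = 0.9999). The highest value was that of Pon2-/- replicate 5, and the other Pon2-/- mice lay within the WT range. Mcm2 (ENSMUSG00000002870.8, chromosome 6 from 88883474 to 88898780) had 60.2 to 183 CPM in WT HSCs (median 139) and 77.8 to 196 CPM in Pon2-/- HSCs (median 107). The ranges overlapped almost fully, at a log2 fold change of -0.14 (SE 0.30, 95% interval -0.78 to 0.49).

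Mcm5 (ENSMUSG00000005410.6, chromosome 8 from 75109569 to 75128439) was the member with the smallest unadjusted p. In WT HSCs it had 127 to 234 CPM (median 149.6), and in Pon2-/- HSCs 159 to 349 CPM (median 217). Its log2 fold change was 0.54 (SE 0.22, 95% interval 0.06 to 1.01), with an unadjusted p of 0.0287 and an adjusted p of 0.9999 (edgeR). The exact permutation test gave p = 0.0476 before and 1.0 after adjustment over all genes. Mcm5 therefore did not pass the test, and its 2 ranges overlapped between 159 and 234 CPM. The log2 fold changes of the other MCM genes lay between -0.14 (Mcm2) and 0.62 (Mcm4). Mcm4 showed the widest spread of them, with 26.7 CPM in Pon2-/- replicate 4 and 294 CPM in Pon2-/- replicate 3.

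Nucleotide synthesis is represented by both subunits of ribonucleotide reductase (Rrm1 and Rrm2), thymidylate synthase (Tyms) and thymidine kinase (Tk1). Rrm2 (ENSMUSG00000020649.11, chromosome 12 from 24708241 to 24714146) encodes the subunit that limits the enzyme to dividing cells, and it had 27.2 to 200.2 CPM in WT HSCs (median 90.1). In Pon2-/- HSCs it had 21.4 to 242 CPM (median 99.7), at a log2 fold change of 0.16 (SE 0.53, 95% interval -0.98 to 1.29). Its 11.3-fold range over the 12 mice was the widest of the enzymes of this group. Tyms (ENSMUSG00000025747.12, chromosome 5 from 30058202 to 30073617) was more even, with 175 to 296 CPM in WT HSCs (median 191) and 131 to 295 CPM in Pon2-/- HSCs (median 192). Its log2 fold change was -0.12 (SE 0.21, 95% interval -0.57 to 0.34). Rrm1 spanned 4.59-fold and Tk1 2.79-fold. Stmn1 was the most even of the 40 genes, with a 1.46-fold range (455 to 665 CPM), while Uhrf1, which maintains DNA methylation at the replication fork, spanned 3.07-fold.

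Cyclins and their kinases drive the transitions between phases, with cyclin E and CDK2 at G1/S, cyclin A at S and G2, and cyclin B with CDK1 at mitosis. Ccne1 was at 0 in Pon2-/- replicates 2, 3 and 4, at 68.4 CPM in Pon2-/- replicate 1, and at 9.34 to 53.0 CPM in WT HSCs. The other cyclin E gene, Ccne2, was counted in all mice at 3.25 to 55.9 CPM. Cdk2 spanned 70.6 to 267 CPM over both genotypes. Cdk1 (ENSMUSG00000019942.12, chromosome 10 from 69335146 to 69352938) had 57.0 to 354 CPM in WT HSCs (median 159.6) and 76.3 to 233 CPM in Pon2-/- HSCs (median 114). Both ends of the range were WT mice, replicates 5 and 1, and the log2 fold change was -0.33 (SE 0.39, 95% interval -1.17 to 0.51). Ccnb1 (ENSMUSG00000041431.16, chromosome 13 from 100778650 to 100786570) ranged from 2.54 to 227 CPM in WT HSCs (median 50.9) and from 19.4 to 182 CPM in Pon2-/- HSCs (median 85.1). WT replicate 1 held the highest and WT replicate 5 the lowest value, an 89.5-fold range within 1 genotype. The log2 fold change was 0.12 (SE 0.80, 95% interval -1.61 to 1.85). Ccna2 and Ccnb2 spanned 12.8-fold and 11.4-fold.

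Mki67 encodes the nuclear antigen Ki-67, which coats mitotic chromosomes and is absent in resting cells, and Top2a encodes the topoisomerase that untangles sister chromatids. Mki67 (ENSMUSG00000031004.8, chromosome 7 from 135689784 to 135716361) had 50.9 to 230.1 CPM in WT HSCs (median 189.9) and 36.1 to 489 CPM in Pon2-/- HSCs (median 241). The lowest and the highest mouse were both Pon2-/-, replicates 1 and 5. Its log2 fold change was 0.71 (SE 0.51, 95% interval -0.38 to 1.80). Top2a (ENSMUSG00000020914.17, chromosome 11 from 98992943 to 99024189) had 182 to 336 CPM in WT HSCs (median 291) and 147 to 520.5 CPM in Pon2-/- HSCs (median 295). With a 3.53-fold range it was the most even of the G2/M genes, at a log2 fold change of 0.12 (SE 0.25, 95% interval -0.43 to 0.66).

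Entry into mitosis and its checkpoint depend on the kinases Plk1, Aurka, Aurkb, Bub1 and Bub1b and on Birc5 (survivin), the partner of Aurora B. Plk1 (ENSMUSG00000030867.7, chromosome 7 from 122159439 to 122169873) had 5.30 to 140.5 CPM in WT HSCs (median 40.1) and 23.7 to 104 CPM in Pon2-/- HSCs (median 29.04). Again the extremes were WT replicates 5 and 1, and the Pon2-/- mice lay between them at a log2 fold change of -0.13 (SE 0.62, 95% interval -1.46 to 1.20). Aurka was at 1.02 CPM in WT replicate 5 and at 28.2 to 104 CPM in the other 11 mice. The 6 genes of this group had log2 fold changes of -0.40 to 0.48. Cdc20 and Ube2c, the activator and the ubiquitin-conjugating enzyme of the anaphase-promoting complex, spanned 20.3-fold and 19.9-fold, with log2 fold changes of -0.10 and -0.00.

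Spindle and kinetochore genes held both ends of the list of log2 fold changes. Cenpf (ENSMUSG00000026605.14, chromosome 1 from 189640606 to 189688086) had 13.7 to 104 CPM in WT HSCs (median 64.9) and 19.8 to 273 CPM in Pon2-/- HSCs (median 87.1). The log2 fold change of 0.82 (SE 0.63, 95% interval -0.53 to 2.17) came with high values in Pon2-/- replicates 4 and 5, while replicate 6 was at 121 CPM and the other Pon2-/- mice lay in the WT range. Kif11 (ENSMUSG00000012443.3, chromosome 19 from 37376403 to 37421859) encodes the motor that pushes the spindle poles apart, and it had 14.7 to 71.4 CPM in WT HSCs (median 35.1) and 8.25 to 45.2 CPM in Pon2-/- HSCs (median 24.6). Its log2 fold change was -0.61 (SE 0.53, 95% interval -1.74 to 0.52), with WT replicate 1 as the highest of the 12 mice. Tpx2 (ENSMUSG00000027469.16, chromosome 2 from 152847964 to 152895321), the activator of Aurora A on the spindle, had 33.0 to 204 CPM in WT HSCs (median 91.1) and 26.3 to 146 CPM in Pon2-/- HSCs (median 61.1). The ranges overlapped over most of their length, at a log2 fold change of -0.41 (SE 0.54, 95% interval -1.58 to 0.76). Kif20a, a kinesin of the cleavage furrow, had the widest range of the 39 genes counted in all mice, 201-fold, from 0.388 CPM in Pon2-/- replicate 2 to 78.2 CPM in WT replicate 1.

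The distance between mice was larger for the G2/M genes. The ratio of the highest to the lowest mouse had a median of 19.9 over the 21 G2/M genes (3.53 to 201) and of 3.16 over the G1/S and S genes with counts in all mice (1.46 to 17.2). It was above 10 for 14 of the G2/M genes and for 4 of the G1/S and S genes. The median SD of log2 CPM within a genotype was 1.25 for G2/M genes, 0.56 for G1/S and S genes and 0.99 for all tested genes. It is a description of these lists, with no test. Spread that comes from the sampling of few cells and spread between animals were not separated, since each mouse gave 1 pool of counts.

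In some mice the G2/M genes were high or low together, while in others they were mixed. In Pon2-/- replicate 6, Mki67 (296 CPM) and Cenpe (163 CPM) lay above every WT mouse. In the same mouse, Ccnb2, Ccna2, Aurkb, Bub1b and Tpx2 had their lowest level of the 12 mice. The mean log2 CPM over the 21 genes was 7.40 in WT replicate 1, 5.69 in replicate 2, 6.92 in replicate 3, 5.74 in replicate 4, 4.57 in replicate 5 and 6.29 in replicate 6. In Pon2-/- HSCs it was 5.88, 5.37, 5.65, 6.70, 7.20 and 5.496 in replicates 1 to 6. The highest mice of the 2 genotypes, WT replicate 1 and Pon2-/- replicate 5, were thus near each other, and the lowest was a WT mouse. The means were 6.10 ± 1.01 in WT HSCs and 6.05 ± 0.74 in Pon2-/- HSCs (SD, n = 6 each), so that they differed by -0.05. Leaving out WT replicate 1 alone turned the difference to 0.21, and leaving out WT replicate 5 gave -0.36. For the G1/S and S genes, the mean was 6.89 ± 0.15 in WT HSCs and 6.73 ± 0.53 in Pon2-/- HSCs. The difference of -0.16 became 0.03 without Pon2-/- replicate 4. It also rested on Ccne1, whose 0 counts in 3 Pon2-/- mice enter the mean at the low value set by the prior count. Without Ccne1, the means of the other 18 genes were 7.05 ± 0.15 in WT HSCs and 7.06 ± 0.40 in Pon2-/- HSCs, which differ by 0.01, and the difference was -0.05 when the median over the 19 genes was used in each mouse. Over all 40 genes, the means were 6.48 ± 0.58 and 6.37 ± 0.45, a difference of -0.10, whereas the difference was 0.16 when the median over genes was used in each mouse. Each of these differences was smaller than the SD between mice of a genotype, pooled over both genotypes (0.88 for G2/M genes, 0.39 for G1/S and S genes and 0.52 for all). This SD describes the spread of single mice and is no test of a difference of means, and none was run on these means.

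**Figure D3:**
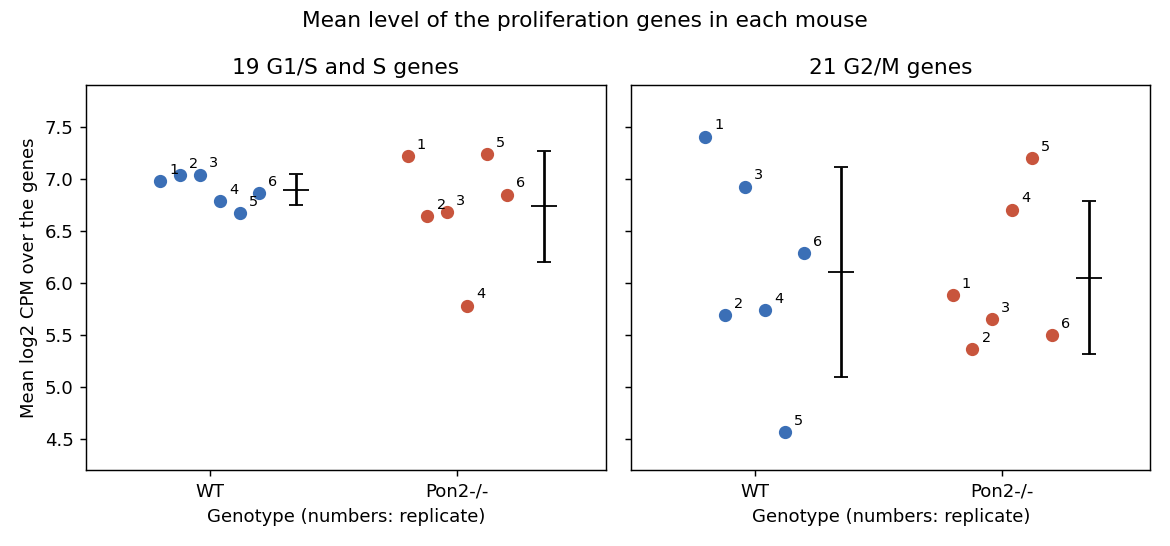
Mean log2 CPM over the 19 G1/S and S genes (left) and the 21 G2/M genes (right) in each mouse, numbered by replicate, with the mean ± SD of each genotype (n = 6) beside the points. The WT mice lie between 6.67 and 7.04 for G1/S and S genes and between 4.57 and 7.40 for G2/M genes, and the genotypes overlap in both panels.

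Counting genes showed the same mice at both ends. All 21 G2/M genes lay above their own median over the 12 mice in WT replicate 1, and 20 did so in WT replicate 3 and in Pon2-/- replicate 5. Only 1 did so in WT replicate 5, and 4 to 14 in the other 8 mice, among them 14 in WT replicate 6 and in Pon2-/- replicate 4. Over all tested genes, 48.1% to 52.5% lay above their median in a mouse. WT replicate 1 had the highest level of 14 of the 21 genes, while it was the highest mouse for 8.14% of all tested genes. The G2/M genes are no replicates of each other, because all of them were counted in the same pools.

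The G1/S and S genes did not follow the same order. Pon2-/- replicate 4, in which 14 of the 21 G2/M genes lay above their median, had 0 of the 19 G1/S and S genes above theirs and the lowest level of 8 of them. Its mean log2 CPM was 5.78, below that of the other 11 mice (6.64 to 7.24). Without Ccne1 it was 6.28, compared with 6.86 to 7.39 in the other mice, and its total of 14671353 counts was within the range of the others. Mki67 (440 CPM), Ccnb2 (330 CPM), Cenpe (178 CPM) and Cenpf (273 CPM) were at or near their highest level in the same mouse. Other G2/M genes were low there, and Cdk1 (76.3 CPM) and Aurka (28.2 CPM) had their lowest level of the Pon2-/- mice. WT replicate 5, the lowest in G2/M genes, had 4 of 19 G1/S and S genes above their median and a mean of 6.67. In Pon2-/- replicate 5, both classes were high, with 14 of 19 and 20 of 21 genes. Pon2-/- replicate 1 also had 14 of 19 G1/S and S genes above their median, with 10 of 21 G2/M genes. In Pon2-/- replicate 2 these numbers were 13 and 4. WT replicates 1 and 3, high in G2/M genes, had 11 and 10 of the 19 G1/S and S genes above their median.

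**Figure D4:**
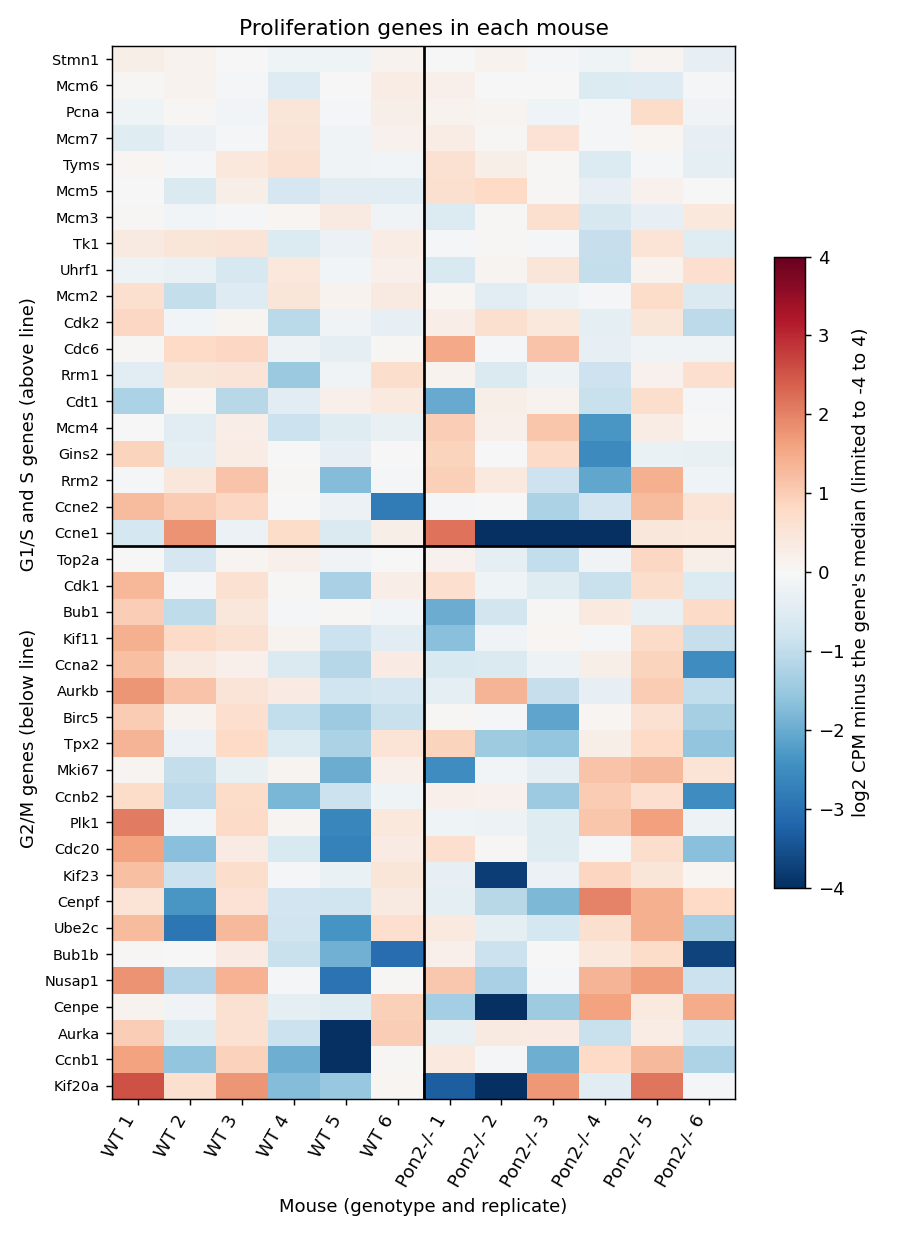
Log2 CPM of each of the 40 genes minus the median of the gene over the 12 mice (red above, blue below, limited to -4 to 4), with WT mice on the left and Pon2-/- mice on the right of the vertical line, and G1/S and S genes above the horizontal line. The G2/M rows are red throughout in WT replicate 1 and nearly throughout in Pon2-/- replicate 5 and WT replicate 3, and the G1/S and S rows of Pon2-/- replicate 4 are blue.

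In the wider lists of the pathway, the same 3 mice stood highest in G2/M genes, and no gene passed the test between genotypes. Of 38 other G2/M genes, 34 lay above their median in WT replicate 1, 33 in Pon2-/- replicate 5 and 30 in WT replicate 3, compared with 5 in WT replicate 2 and in Pon2-/- replicate 3 and 7 in WT replicate 5. The order of the other mice was not the same in both lists. Pon2-/- replicate 2 had 20 of these 38 genes above their median, but only 4 of the 21 G2/M members. Of 31 other S-phase genes, 4 lay above their median in Pon2-/- replicate 4 and 9 to 22 in the other mice. The genotype comparison called 0 of the 38, 0 of the 31 and 0 of 19 regulators of the E2F, DREAM and MMB complexes, in either direction (edgeR, 0.203% of all tested genes called). Their median log2 fold changes were -0.00, -0.05 and 0.13, compared with -0.01 over all tested genes. At an unadjusted edgeR p below 0.05 there was 1 gene of these lists, Rfc2, compared with 3.13% of all tested genes. It encodes a subunit of the factor that loads PCNA onto DNA. Rfc2 had 315 to 571 CPM in WT HSCs and 465 to 879 CPM in Pon2-/- HSCs, overlapping ranges, at a log2 fold change of 0.51 (SE 0.19, unadjusted p = 0.0167, adjusted p = 0.9999, exact permutation test p = 0.0303). By the permutation test alone, Brip1, a helicase of DNA repair, also had a p below 0.05 (exact permutation test p = 0.0281, and 1.0 after adjustment over all genes). It had 15.97 to 57.3 CPM in WT HSCs and 0.0693 to 25.6 CPM in Pon2-/- HSCs, at a log2 fold change of -1.60 (SE 0.94). Rfc2 and Brip1 thus had opposite signs, and neither passed. For the permutation test, the share over all genes is not given here. The 19 regulators had a median of 13.7 TPM over genes, compared with 59.4 TPM for the 40 members, and 12 of them had counts in all 12 mice.

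**Figure D5:**
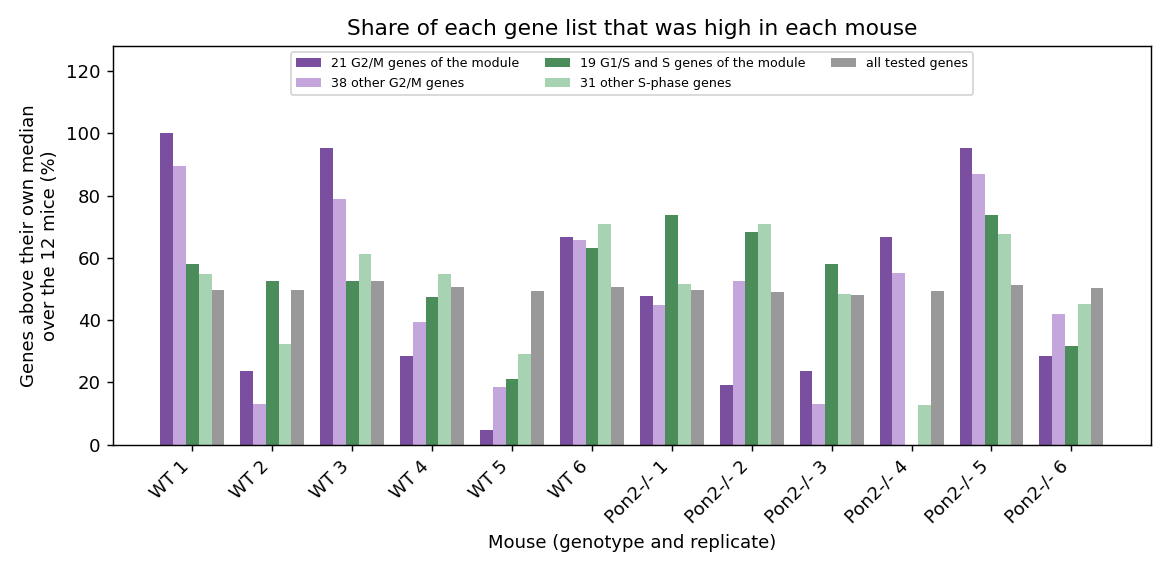
Share of the genes of each list (%) that lay above their own median over the 12 mice, for each mouse. The G2/M genes reach 100% in WT replicate 1 and 4.76% in WT replicate 5, and the G1/S and S genes are at 0% in Pon2-/- replicate 4.

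Markers of other cells also differed between the mice. Pon2-/- replicate 5, with high levels of both classes, held 4311 of 4567 counts of Igll1, 2092 of 2385 counts of Vpreb1 and 4366 of 5104 counts of Dntt, genes of early B-lymphoid cells. Over the list of 10 B-lineage genes, 9 were counted in this mouse, and its summed level of 937.5 CPM was the highest of all, in a range of 30.3 to 419 CPM in WT HSCs and 58.8 to 938 CPM in Pon2-/- HSCs. Pon2-/- replicate 4, with G1/S and S genes low and G2/M genes high, also had 9 of these genes counted and the next highest sum (484 CPM, above every WT mouse). It held 258 of 300 counts of Pax5 and 1282 of 1613 counts of Ms4a1. Next in this sum were WT replicates 2 (419 CPM) and 5 (293 CPM), with only 5 and 1 of the 21 G2/M genes above their median. WT replicate 3, with 20 of the 21 above, had a sum of 64.8 CPM. No gene of this list was at 0 in all mice, while of the 10 T-lineage genes Cd3e, Cd5, Cd8a, Cd8b1, Trac and Zap70 were. WT replicate 1, with the highest G2/M levels, held 1645 of 1914 counts of Ctsg and 2291 of 4926 counts of Mpo, genes of granulocyte and monocyte precursors. The other genes of the myeloid list were not high in this mouse. Elane, Ly6g and Csf1r were at 0, and S100a8 (19.4 CPM) and S100a9 (4.67 CPM) were low. Prtn3 was at 332 CPM, in a range of 233 to 385 CPM over all mice. Its summed level of the 8 myeloid genes was 523 CPM, within 315 to 8070 CPM in WT HSCs and 302 to 12447 CPM in Pon2-/- HSCs, a list led by S100a8 and S100a9. The 6 erythroid genes summed to 9.16 to 51.1 CPM in WT HSCs and to 0.833 to 11.8 CPM in Pon2-/- HSCs. These ranges overlapped, with WT replicate 4 at 9.16 CPM, and 0 of the 6 genes were called (0.203% of all tested genes). Most of the difference of the means lay in Hbb-bt, an adult beta globin gene. It was at 6.11 to 38.1 CPM in WT HSCs and 0 to 1.11 CPM in Pon2-/- HSCs, without overlap of the genotypes. Such a lack of overlap was found for 0.633% of all tested genes. Without Hbb-bt, the sums were 1.57 to 30.7 and 0.787 to 11.8 CPM and also overlapped. The lists of MPP2 and megakaryocyte-erythroid genes (133 to 321 CPM, Car1 at 0) and of lymphoid-primed MPP genes (187 to 619 CPM) overlapped between genotypes. The part of these cells in the levels of the proliferation genes was not tested. Without Pon2-/- replicate 5, the difference of the mean log2 CPM of G2/M genes was -0.28, and 0 of the 40 genes were called when any single mouse was left out.

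Some members share sequence with other genes. The processed pseudogene Pcna-ps2, 99.2% identical to Pcna over 781 bases, had 541 counts beside 53195 on Pcna. Likewise, Gm11223, 99.8% identical to Stmn1, had 1011 beside 127232, and Ccnb1-ps had 93 beside 20843 on Ccnb1. Reads that fit both a member and its copy may have been assigned to either or left uncounted. The small counts on these copies therefore do not bound the number of such reads. Gm5487, 97.7% identical to Mcm7 over 2157 bases, was not among the genes counted. On opposite strands, Gins2 overlaps Gse1 (2758 bases of exon), Kif20a overlaps Cdc23 (1271 bases) and Ccna2 overlaps Exosc9 (510 bases). Because Smart-seq2 does not keep the strand, reads in these stretches cannot be assigned with certainty and may be counted for neither gene. TPM was scaled by the full exon length, so the TPM of Gins2, Kif20a and Ccna2 may be too low.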

How the data were processed

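Smart-seq2 libraries of HSCs from 6 WT and 6 Pon2-/- mice were compared. The authors used Trimmomatic 0.36 for adapters and STAR 2.5.3a for mapping (GRCm38.p5, GENCODE M12), and deposited whole-number counts per gene, without normalization. STAR writes an unstranded and 2 strand-specific counts. Which of these was deposited is not given in the sources used here, and the values were taken as unstranded. A blank last line was left out. Symbols, positions and exon lengths were those of GENCODE M21 (49326 of 49585 IDs had a symbol).

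Counts were normalized with TMM, filtered with filterByExpr and compared with edgeR 4.0.16 (quasi-likelihood F-test, genotype as the only term, R 4.3.3) over all 11848 tested genes, with Benjamini-Hochberg adjustment. A called gene had an FDR below 0.05 and a log2 fold change above 1 or below -1. SE was the absolute log2 fold change divided by the square root of F. CPM used the TMM-scaled library, log2 CPM a prior count of 2, and TPM the exon length. For single genes, log2 CPM was permuted over all 924 relabellings of the mice (exact, two-sided). Alternatives were DESeq2 1.42.0, limma 3.58.1 voom, other filters and size factors, a replicate block, leaving out each mouse and, chosen after seeing the data, Y-linked expression as covariate. Sequence copies were sought with minimap2 2.31-r1302. The procedure was tested on simulated counts.

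The 40 members and all lists were chosen with earlier results of these data known. Full values by genotype were given for Mki67, Top2a, Ccnb1, Cdk1, Plk1, Pcna, Mcm2, Rrm2, Tyms, members with an unadjusted p below 0.05 and the 2 largest log2 fold changes in each direction. Other members named were chosen after their values were seen. The labels do not say whether samples of the same number were matched. The value of a further gene is not reported here.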

Additional observations from a re-analysis of the deposited data

Results flagged for a closer look

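In 8 of 88 tested groups of 6 mice (Pon2, the 40 genes and 3 means, each in both genotypes), the highest or lowest mouse was far from the others by Dixon's criterion. Chance flags about 1 in 20 groups. Pon2 was at 0.34 log2 CPM in Pon2-/- replicate 5, and the next mouse was at 4.83. Among the G2/M genes, Aurka was at 0.17 log2 CPM in WT replicate 5, Bub1b at 2.71 in Pon2-/- replicate 6 and Kif23 at 2.43 in Pon2-/- replicate 2, each the lowest of its genotype. Among the G1/S and S genes, Ccne2 was at 1.75 log2 CPM in WT replicate 6, and Mcm4 at 4.74 and Gins2 at 3.33 in Pon2-/- replicate 4, the mouse with the lowest level of 8 of the 19 genes. Pcna was highest in Pon2-/- replicate 5, at 8.54 log2 CPM with the next mouse at 7.94.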

How the results depend on the processing

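None of the 40 genes was called under any alternative run, including DESeq2, limma voom and each mouse left out. Over all tested genes, 24 were called, 8 without a filter beyond 1 read, 305 with DESeq2, 5 with a replicate block and 20 to 28 when 1 mouse was left out. The replicate numbers do not pair the mice by any label. Deviations of same-numbered mice correlated at 0.00 to 0.04, and 1 of 6 pairs matched best with its own number. A figure legend of the study calls the WT samples matched, without saying by what. With so wide a spread between mice, these correlations cannot decide whether same-numbered mice were matched. Pon2 passed the threshold with DESeq2 (log2 fold change -2.13, adjusted p = 0.0103) and without Pon2-/- replicate 5 (-1.88, adjusted p = 0.0295; range -2.27 to -1.88 over single mice left out). Its adjusted p ranged from 0.0103 to 1.0 over the alternatives.

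Single log2 fold changes were recomputed for 13 of the 40 genes, and the sign of 5 of these was not stable. The other 27 were not recomputed singly. Plk1 (-0.13) was 0.13 with voom and 0.0464 with the Y-linked covariate, and Rrm2 (0.16) was -0.0225 with voom and -0.0938 with the replicate block. With single mice left out, the ranges were -0.52 to 0.46 for Plk1, -0.21 to 0.45 for Rrm2, -0.22 to 0.75 for Ccnb1, -0.12 to 0.13 for Pcna and -0.11 to 0.25 for Top2a. The cause was not tested. The difference of the mean log2 CPM lay between -0.36 and 0.21 for G2/M genes, -0.26 and 0.03 for G1/S and S genes and -0.29 and 0.04 for all 40, when 1 mouse was left out. A 2-fold difference in at least 1 direction was within the 95% interval for 20 of the 21 G2/M genes.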
